A study of Mus musculus with 12 samples.

Results

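Genes of glycolysis, the pentose phosphate pathway, and the response to low oxygen were followed by bulk RNA-seq of 3T3-L1, a fibroblast line from mouse embryos. The members were 36 gene symbols chosen by name, with earlier results of these data known. They were 29 of enzymes, transporters, and kinases of glucose use and 7 of the hypoxia response. All rows of the deposited counts with one of these symbols were taken. Of 56941 gene rows, 37 carried such a symbol, because 2 rows are named *Eno1*. The second of these is given here as *Eno1b*, its name in the table of gene names. *Gapdh* was left out because most reads of its sequence were counted on pseudogenes. Of the 37 rows, 36 passed the filter on low counts, and *Aldoc*, with between 1 and 11 counts per library, did not and was not tested.

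Wild-type cells were cultured for 24 hours with vehicle (control), with IL-4 and IL-13 at 50 ng/mL each (IL-4/13), with an inflammatory mixture (Inf) of 20 ng/mL TNF-α, 50 ng/mL IL-17A, and 0.5 ng/mL IL-1β, or with all 5 cytokines (IL-4/13 + Inf). Each of the 4 conditions had 3 libraries, for 12 in all, from 1 cell line and with a single batch label. Nothing in the labels says that the 3 libraries of a condition came from separate cultures, so the p-values measure the spread between these libraries, which may be technical. Total counts ranged from 13446005 to 20775769 per library. Levels are given as CPM, which are counts relative to the library size after TMM scaling, and fold changes come from edgeR's quasi-likelihood test of 14810 genes with all 12 libraries fitted together. Calls of higher or lower required a log2 fold change beyond 0.25 in size together with an adjusted p (Benjamini-Hochberg) under 0.05.

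Glycolysis splits glucose into pyruvate in the cytosol. Pyruvate then either enters the mitochondrion through pyruvate dehydrogenase or is reduced to lactate by lactate dehydrogenase and exported. The pentose phosphate pathway branches off after the first phosphorylation and yields NADPH and ribose. HIF-1α, a transcription factor that prolyl hydroxylases mark for degradation when oxygen is present, binds a short DNA motif near many glycolytic genes and raises their transcription. Its protein, its activity, oxygen, glucose, and lactate were not measured in these libraries, which hold mRNA levels only.

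The cells expressed the fibroblast genes *Col1a1*, *Col1a2*, *Col3a1*, *Pdgfra*, *Pdgfrb*, *Thy1*, and *Vim* in all libraries, with a summed level of 9161 to 16587 CPM. *Lep*, an adipocyte hormone, had no count in any library, and *Adipoq* had 1 count in 1 library. Of the 7 adipocyte markers, 6 had 3 or fewer counts in all libraries, and the summed macrophage markers were at 5.83 to 9.84 CPM.

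Inf raised most of the members, and IL-4/13 alone changed 1. Against control, Inf was called higher for 25 of the 36 tested members and lower for 1 (*Pfkfb4*), while 16.3% of all tested genes were called higher and 15.3% lower. The median log2 fold change of the members was 0.54, against 0.01 over all tested genes. Because the members were chosen with earlier results of these data known, their counts beside those of all genes are a description and not a test. IL-4/13 against control was called higher for 1 member (*Pfkfb4*) and lower for 0, where 2.78% of all genes were called higher and 2.57% lower. The 2 members called lower without the fold threshold in that comparison were *Hif1a* and *Egln3*, where 607 of all 14810 tested genes were called lower. DESeq2 called 0 members lower, and 8 were below 0 at an unadjusted edgeR p under 0.05. Shares of all genes at an unadjusted p are not given here.

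When IL-4/13 was added to Inf, no member was called higher and 15 were called lower against Inf alone, where 7.55% of all genes were called higher and 7.00% lower. The 15 included all 7 hypoxia genes among the members (*Ndrg1*, *Bnip3*, *Ankrd37*, *Hif1a*, *Egln1*, *Egln3*, and *Car9*). The others were the 3 pyruvate dehydrogenase kinases among the members (*Pdk1*, *Pdk2*, and *Pdk4*), *Pfkfb3*, *Pfkl*, *Pfkp*, *Eno2*, and *Ldhb*. Without the fold threshold, 24 members were called lower, as were 1490 of all 14810 tested genes. DESeq2 also called 0 higher, and 1 member (*Pfkfb4*) was above 0 at an unadjusted p under 0.05. The median over the members was −0.21, against −0.01 over all tested genes. All 5 cytokines together were called higher than control for 18 members and lower for 2 (*Car9* and *Ldhb*), with 13.4% and 11.5% of all genes called in these directions. These comparisons share libraries, so their values are given side by side and were not related to each other.

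**Figure D1:**
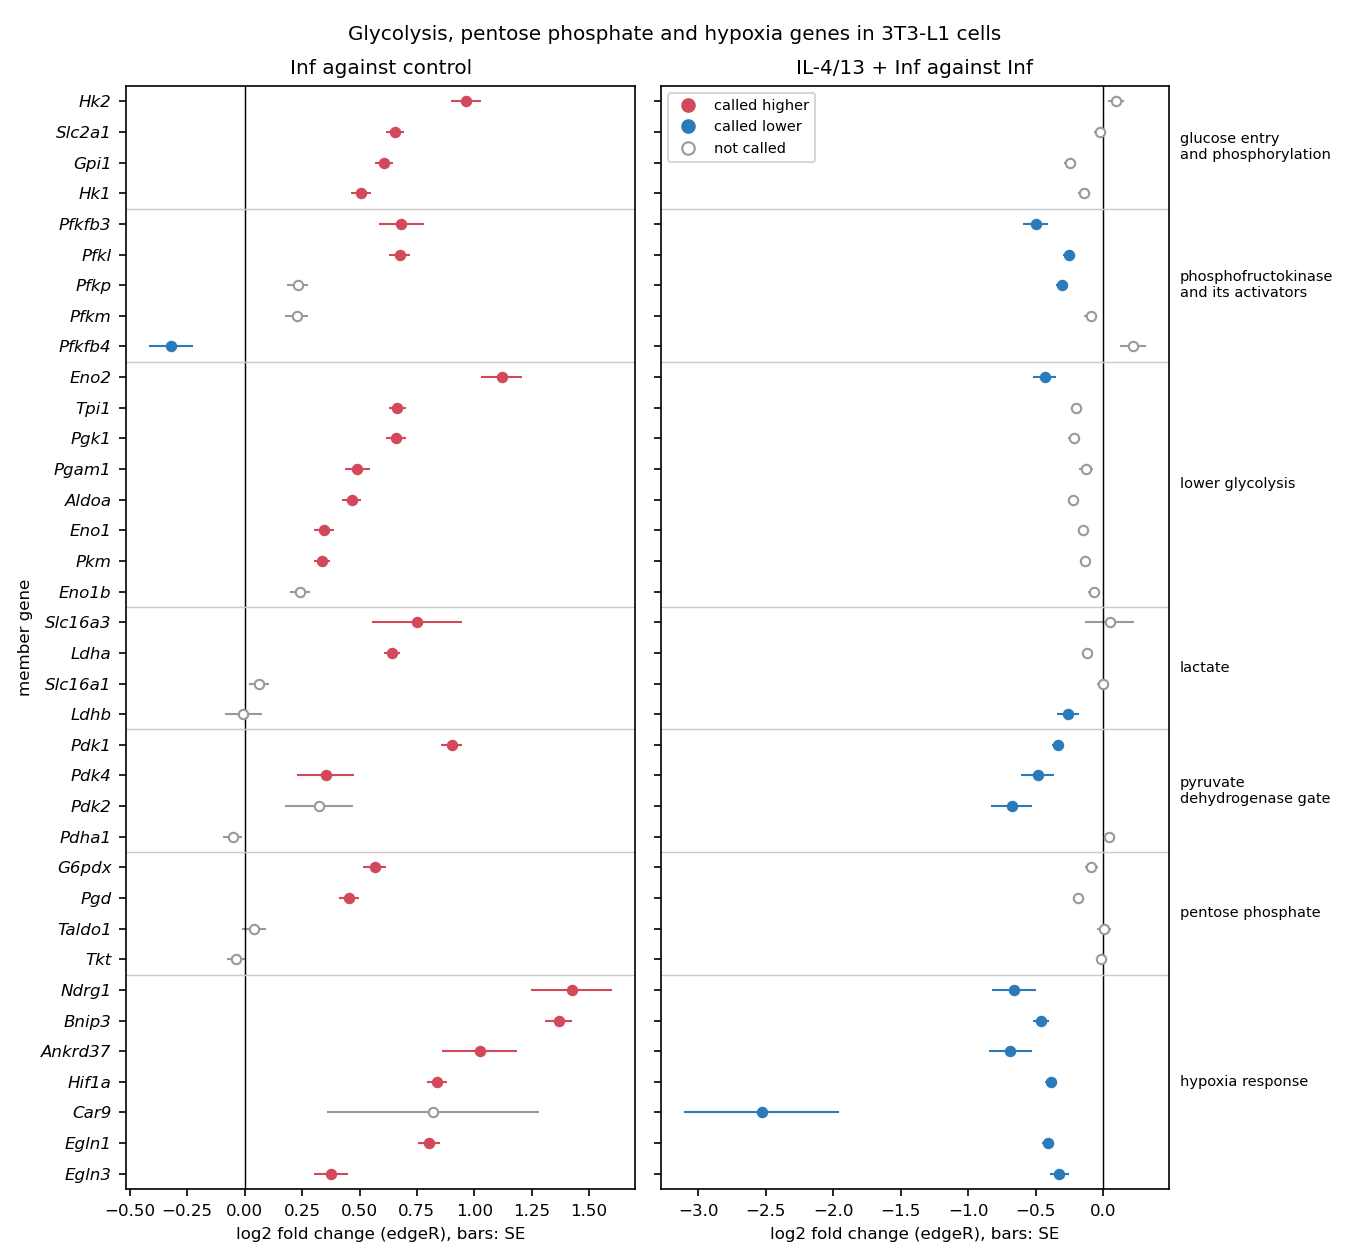
Log2 fold change (x axis, with standard error, from edgeR) of the 36 tested members (y axis, grouped by role) with Inf against control on the left and IL-4/13 + Inf against Inf on the right; filled points were called and open points were not, and the x axes of the panels differ. On the left, 25 members lie to the right of 0 as called and *Pfkfb4* to the left, and on the right all 15 called members lie to the left of 0, including all 7 hypoxia genes, while *Hk2*, *Slc2a1*, and *Slc16a3* lie near 0.

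The motif that HIF-1α binds has the core ACGTG or GCGTG. It was searched on either strand (where it reads CACGT or CACGC) in the promoter windows of RefSeq, which span 250 bases before to 50 bases after a gene start in GRCm38.p6. A total of 35 member symbols had 50 windows, and *Ndrg1* had none in the table. The core was in 40 of the 50 windows (80.0%), compared with 61.2% of the windows of tested genes and 43.8% of all windows. By gene, 32 of 35 members (91.4%) and 67.3% of tested genes had the core in at least 1 window. Promoters of expressed genes are rich in CG, and base composition was not matched in this comparison. *Eno2*, *Gpi1*, and *Tpi1* had no core in their windows, although Inf raised all 3.

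The last core that ends before the gene start is shown with 12 bases on each side, from the window with the most cores, for the 3 genes whose response to IL-4/13 differed with and without Inf (*Bnip3*, *Egln1*, *Pdk1*), for 4 genes that Inf raised (*Ldha*, *Pgk1*, *Hk2*, *Slc2a1*), and for *Tkt* and *Taldo1*, which were not called in any comparison. Each is read 5′ to 3′ on the strand of the gene, and capitals mark the core or its reverse complement. These 9 were chosen after the values had been seen.
Bnip3, chr7:138909525-138909553, minus strand: ggctccgccgccGCGTGcgtcccgccccg
Egln1, chr8:124949306-124949334, minus strand: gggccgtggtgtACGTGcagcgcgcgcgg
Pdk1, chr2:71873134-71873162, plus strand: ccgcctacatggGCGTGtctttaaccagg
Ldha, chr7:46845758-46845786, plus strand: cgtgggttcccgCACGTccgctgggctcc
Pgk1, chrX:106186957-106186985, plus strand: aaatggaagtagCACGTctcactagtctc
Hk2, chr6:82774490-82774518, minus strand: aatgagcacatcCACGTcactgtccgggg
Slc2a1, chr4:119108697-119108725, plus strand: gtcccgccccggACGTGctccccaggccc
Tkt, chr14:30549051-30549079, plus strand: actaaatgcgggGCGTGgccagaggccac
Taldo1, chr7:141392068-141392096, plus strand: ccgtgacacgggGCGTGgtctatggcaag
The core was present both in genes that Inf raised and in *Tkt* and *Taldo1*, because only stretches with a core are shown. Whether the core separates members that were called from those that were not cannot be read from them. A match in a window is a description and does not show binding.

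The mRNA of each of the 4 members grouped under glucose entry and phosphorylation rose with Inf. None of the 4 was called lower when IL-4/13 was added. *Slc2a1*, the GLUT1 glucose transporter, was at 220 ± 2.75 CPM in control, 225 ± 4.41 with IL-4/13, 347 ± 6.69 with Inf, and 340 ± 2.89 with IL-4/13 + Inf (mean ± SD of 3 libraries). For *Slc2a1*, the log2 fold change was 0.66 ± 0.04 (SE) with Inf against control (adjusted p = 1.2e-14) and −0.03 ± 0.04 with IL-4/13 + Inf against Inf (adjusted p = 0.67). *Hk2*, the inducible hexokinase that traps glucose in the cell, had 51.6, 50.9, and 56.3 CPM in the control libraries, 58.1, 58.9, and 56.2 with IL-4/13, 111, 106, and 92.9 with Inf, and 112, 117, and 102 with IL-4/13 + Inf. All libraries with Inf were above all libraries without it, and the Inf and IL-4/13 + Inf libraries overlapped. *Hk2* had a log2 fold change of 0.96 ± 0.06 with Inf against control (adjusted p = 2.0e-13), 1.06 ± 0.06 for all 5 cytokines against control (adjusted p = 1.9e-14), and 0.09 ± 0.06 with IL-4/13 + Inf against Inf (adjusted p = 0.30).

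*Hk1*, the constitutive hexokinase, rose from 204 ± 6.40 CPM to 289 ± 10.9 with Inf (log2 fold change 0.50 ± 0.04) and was at 261 ± 4.12 with all 5 cytokines. Against Inf, the latter was a log2 fold change of −0.15 (adjusted p = 0.012), inside the fold threshold. *Gpi1*, which converts glucose 6-phosphate to fructose 6-phosphate, rose from 343 ± 12.3 to 522 ± 5.59 CPM (0.61 ± 0.04). With IL-4/13 added to Inf, *Gpi1* was at 439 ± 3.20 CPM, a log2 fold change of −0.25 ± 0.04 with an adjusted p of 1.3e-05 that lay just inside the fold threshold. It was called under 12 of 23 alternatives, with values between −0.27 and −0.24.

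Among the phosphofructokinases, which commit sugar to glycolysis, *Pfkl* rose most with Inf. Its mean was 350 ± 21.2 CPM in control, 558 ± 17.5 with Inf, and 467 ± 5.07 with IL-4/13 + Inf, with log2 fold changes of 0.67 ± 0.05 with Inf against control and −0.26 ± 0.05 with IL-4/13 + Inf against Inf (adjusted p = 9.7e-05). Without Inf replicate 1, the second of these was −0.23 and was no longer called. *Pfkp* and *Pfkm* each had a log2 fold change of 0.23 ± 0.05 with Inf against control, inside the fold threshold. Both were called without some single libraries, *Pfkm* without control replicate 1 (0.26) and *Pfkp* without control replicate 3 (0.26) or Inf replicate 3 (0.25). *Pfkp* was lower in IL-4/13 + Inf than in Inf, at 131 ± 2.08 against 163 ± 5.10 CPM (−0.31 ± 0.05, adjusted p = 9.1e-06), and its control mean was 139 ± 4.72.

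The bifunctional enzymes *Pfkfb3* and *Pfkfb4* make and remove fructose 2,6-bisphosphate, a strong activator of phosphofructokinase, and they went in opposite directions with Inf. *Pfkfb3* had 13.5, 13.6, and 12.7 CPM in the control libraries, 11.9, 13.2, and 12.6 with IL-4/13, 22.6, 22.3, and 19.0 with Inf, and 16.5, 14.3, and 14.2 with IL-4/13 + Inf. The Inf libraries were highest, with no overlap with any other condition. The log2 fold change of *Pfkfb3* was 0.68 ± 0.10 with Inf against control (adjusted p = 1.1e-06) and −0.50 ± 0.10 with IL-4/13 + Inf against Inf (adjusted p = 0.00020), and all 5 cytokines against control gave 0.18 ± 0.10 (adjusted p = 0.19). *Pfkfb4* was at 17.6 ± 1.07 CPM in control, 21.6 ± 0.92 with IL-4/13, 14.1 ± 0.84 with Inf, and 16.5 ± 1.51 with IL-4/13 + Inf. It was the only member called lower with Inf (−0.32 ± 0.10, adjusted p = 0.0077) and the only one called higher with IL-4/13 (0.30 ± 0.09, adjusted p = 0.041). The latter call was lost without any 1 of the 3 control or 3 IL-4/13 libraries, and also without IL-4/13 + Inf replicate 2, with log2 fold changes of 0.25 to 0.33.

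Of the enzymes from aldolase to pyruvate kinase, 7 of the 8 tested rows rose with Inf, by log2 fold changes of 0.34 to 1.12. *Tpi1*, triose phosphate isomerase, rose from 1156 ± 21.01 to 1832 ± 56.1 CPM, and *Pgk1*, phosphoglycerate kinase, from 263 ± 6.38 to 415 ± 23.8, each with a log2 fold change of 0.66 ± 0.04. *Aldoa*, aldolase, rose from 1159 ± 52.8 to 1601 ± 26.5 CPM (0.47 ± 0.04), and *Pgam1*, phosphoglycerate mutase, from 165 ± 12.6 to 232 ± 13.8 (0.49 ± 0.05). *Pkm*, pyruvate kinase, rose from 2737 ± 66.5 to 3461 ± 45.3 CPM (0.34 ± 0.03). *Eno1*, the ubiquitous enolase, rose from 433 ± 19.6 to 551 ± 28.1 (0.35 ± 0.04), and *Eno1b* was at 452 ± 18.5 and 534 ± 17.5, with a log2 fold change of 0.24 ± 0.04 just inside the threshold. *Eno1b* was called without control replicate 1 or 3 or Inf replicate 1 or 2, at 0.25 to 0.27.

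With IL-4/13 added to Inf, these enzymes other than *Eno2* had log2 fold changes of −0.22 to −0.07, all inside the fold threshold. *Aldoa*, *Tpi1*, *Pgk1*, *Eno1*, and *Pkm* had an adjusted p below 0.05 in that comparison, the highest being 0.012, and *Pgam1* and *Eno1b* did not. *Eno2*, the enolase best known from neurons, was called lower in that comparison. It had 14.97, 12.7, and 14.0 CPM in the control libraries, 11.0, 11.4, and 11.8 with IL-4/13, 32.7, 28.8, and 29.3 with Inf, and 23.2, 22.9, and 20.8 with IL-4/13 + Inf. The 4 conditions did not overlap in any pair. For *Eno2*, the log2 fold change was 1.12 ± 0.09 with Inf against control (adjusted p = 8.9e-12), −0.44 ± 0.08 with IL-4/13 + Inf against Inf (adjusted p = 0.00026), and −0.29 ± 0.10 with IL-4/13 against control (adjusted p = 0.074). The last was called without control replicate 2, at −0.35.

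Of the genes that make and export lactate, *Ldha* and *Slc16a3* rose with Inf and *Ldhb* and *Slc16a1* were not called. *Ldha*, the muscle-type lactate dehydrogenase, was at 1649 ± 13.0 CPM in control, 2574 ± 69.3 with Inf, and 2368 ± 31.2 with IL-4/13 + Inf. Its log2 fold change was 0.64 ± 0.03 with Inf against control (adjusted p = 6.5e-16) and −0.12 ± 0.03 with IL-4/13 + Inf against Inf (adjusted p = 0.011). *Slc16a3*, the MCT4 lactate exporter, had 2.23, 2.54, and 2.70 CPM in the control libraries, 3.05, 2.20, and 2.28 with IL-4/13, 4.12, 4.58, and 3.82 with Inf, and 4.26, 4.16, and 4.59 with IL-4/13 + Inf. Both conditions with Inf lay above both without it, and they overlapped each other. *Slc16a3* had a log2 fold change of 0.75 ± 0.20 with Inf against control (adjusted p = 0.0024), 0.80 ± 0.19 for all 5 cytokines against control (adjusted p = 0.0016), and 0.05 ± 0.18 with IL-4/13 + Inf against Inf (adjusted p = 0.89).

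*Slc16a1*, the MCT1 transporter that carries lactate and pyruvate, was at 180 ± 7.32 CPM in control and 188 ± 7.38 in Inf. With IL-4/13 alone it was at 207 ± 5.74 CPM, a log2 fold change of 0.21 ± 0.04 (adjusted p = 0.0024) inside the fold threshold. *Ldhb*, the heart-type lactate dehydrogenase, was at 27.0 ± 0.34 CPM in control, 26.9 ± 1.42 with Inf, and 22.5 ± 1.65 with IL-4/13 + Inf. It fell in the last against control (−0.27 ± 0.08, adjusted p = 0.011) and against Inf (−0.26 ± 0.08, adjusted p = 0.020). Without IL-4/13 + Inf replicate 1, both calls were lost, at −0.20 and −0.19, and the second was also lost without Inf replicate 1, at −0.22.

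The pyruvate dehydrogenase kinases switch off pyruvate dehydrogenase and so keep pyruvate out of the mitochondrion, and all 3 that are members fell when IL-4/13 was added to Inf. *Pdk3*, a kinase of this family that is not a member, was not called lower in that comparison. *Pdk1*, a HIF-1α target, had 86.6, 87.0, and 86.9 CPM in the control libraries, 84.6, 82.4, and 85.9 with IL-4/13, 154, 167, and 165 with Inf, and 128, 130, and 127 with IL-4/13 + Inf. The lowest Inf library was above the highest IL-4/13 + Inf library, and both conditions were above control. The log2 fold change of *Pdk1* was 0.90 ± 0.05 with Inf against control (adjusted p = 3.3e-16), −0.34 ± 0.05 with IL-4/13 + Inf against Inf (adjusted p = 1.8e-06), and −0.04 ± 0.05 with IL-4/13 against control (adjusted p = 0.69). *Pdk2* had 5.89, 6.20, and 7.14 CPM in the control libraries, 4.82, 5.64, and 4.26 with IL-4/13, 7.04, 8.67, and 8.24 with Inf, and 4.91, 4.38, and 5.80 with IL-4/13 + Inf. The Inf and IL-4/13 + Inf libraries did not overlap, whereas Inf and control did. For *Pdk2*, the log2 fold change was −0.68 ± 0.15 with IL-4/13 + Inf against Inf (adjusted p = 0.0012) and 0.32 ± 0.15 with Inf against control (adjusted p = 0.078), and without Inf replicate 1 the latter was 0.40 and was called.

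*Pdk4*, a kinase known to respond to fasting and glucocorticoids, was at 12.3 ± 1.63 CPM in control, 15.7 ± 1.24 with Inf, and 11.2 ± 1.72 with IL-4/13 + Inf. Its log2 fold changes were 0.35 ± 0.12 with Inf against control (adjusted p = 0.023) and −0.49 ± 0.12 with IL-4/13 + Inf against Inf (adjusted p = 0.0045). Neither call held in all subsets of libraries. The first was lost without control replicate 1 (0.35), control replicate 2 (0.27), Inf replicate 1 (0.31), or Inf replicate 2 (0.34), and the second without IL-4/13 + Inf replicate 2 (−0.37). *Pdha1*, the catalytic subunit on which these kinases act, was at 210 ± 7.43 CPM in control, 217 ± 2.74 with IL-4/13, 203 ± 1.28 with Inf, and 209 ± 3.00 with IL-4/13 + Inf and was called in no comparison.

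In the pentose phosphate pathway, the 2 NADPH-producing dehydrogenases rose with Inf and the 2 enzymes of the non-oxidative arm were not called. *G6pdx*, glucose 6-phosphate dehydrogenase, rose from 121 ± 5.69 to 179 ± 11.2 CPM (log2 fold change 0.57 ± 0.05, adjusted p = 6.2e-11), and *Pgd*, 6-phosphogluconate dehydrogenase, from 202 ± 4.35 to 277 ± 6.82 (0.45 ± 0.04, adjusted p = 3.3e-10). With all 5 cytokines they were at 169 ± 4.46 and 244 ± 8.46 CPM. Against control, *Pgd* was then called at 0.27 ± 0.04, but not without IL-4/13 + Inf replicate 1 (0.25) or with library size alone in place of TMM scaling (0.24). Against Inf, *Pgd* had a log2 fold change of −0.19 with all 5 cytokines (adjusted p = 0.0016), inside the fold threshold. *Tkt*, transketolase, was at 376 ± 5.24 CPM in control and 366 ± 5.59 in Inf, and *Taldo1*, transaldolase, was at 92.1 ± 2.67 and 94.9 ± 5.73. Their log2 fold changes with Inf against control were −0.04 ± 0.04 and 0.04 ± 0.05.

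The hypoxia genes had the largest median log2 fold changes of the 7 role groups, 0.84 with Inf against control and −0.46 with IL-4/13 + Inf against Inf, with 6 of 7 called higher with Inf and 7 of 7 called lower when IL-4/13 was added to Inf. *Hif1a*, which encodes HIF-1α, had 415, 402, and 373 CPM in the control libraries, 364, 344, and 361 with IL-4/13, 701, 726, and 699 with Inf, and 530, 531, and 565 with IL-4/13 + Inf. The 4 conditions did not overlap, in the order IL-4/13, control, IL-4/13 + Inf, Inf. *Hif1a* had a log2 fold change of 0.84 ± 0.04 with Inf against control (adjusted p = 2.2e-16) and −0.39 ± 0.04 with IL-4/13 + Inf against Inf (adjusted p = 4.0e-08). It was −0.16 ± 0.04 with IL-4/13 against control (adjusted p = 0.020), inside the fold threshold.

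*Egln1* and *Egln3* encode the oxygen-sensing prolyl hydroxylases PHD2 and PHD3, which mark HIF-1α for degradation and are themselves HIF targets. *Egln1* had 98.5, 91.2, and 94.4 CPM in the control libraries, 92.9, 92.9, and 96.9 with IL-4/13, 166, 159, and 171 with Inf, and 123, 126, and 124 with IL-4/13 + Inf. Control and IL-4/13 overlapped, and each of the other two conditions was apart from all others. The log2 fold change of *Egln1* was 0.80 ± 0.05 with Inf against control (adjusted p = 8.9e-15) and −0.41 ± 0.05 with IL-4/13 + Inf against Inf (adjusted p = 8.9e-08). *Egln3* was at 41.6 ± 2.97 CPM in control, 35.2 ± 1.85 with IL-4/13, 53.9 ± 5.99 with Inf, and 43.1 ± 1.36 with IL-4/13 + Inf, with log2 fold changes of 0.38 ± 0.07 with Inf against control and −0.33 ± 0.07 with IL-4/13 + Inf against Inf.

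*Bnip3*, a mitophagy receptor on the outer mitochondrial membrane, had 56.6, 55.9, and 56.5 CPM in the control libraries, 58.0, 52.0, and 56.4 with IL-4/13, 131, 149, and 156 with Inf, and 107, 106, and 104 with IL-4/13 + Inf. Inf was highest, IL-4/13 + Inf was between it and control, and control and IL-4/13 overlapped. For *Bnip3*, the log2 fold change was 1.37 ± 0.06 with Inf against control (adjusted p = 2.4e-18) and −0.46 ± 0.06 with IL-4/13 + Inf against Inf (adjusted p = 2.4e-07). *Ndrg1*, a gene of growth arrest and stress, had 3.43, 3.78, and 4.02 CPM in the control libraries, 3.32, 2.14, and 4.12 with IL-4/13, 8.11, 11.6, and 10.2 with Inf, and 5.75, 7.25, and 6.01 with IL-4/13 + Inf. The conditions with Inf were above those without it and did not overlap each other. *Ndrg1* had a log2 fold change of 1.42 ± 0.18 with Inf against control (adjusted p = 7.8e-08), the largest rise among the members, and −0.67 ± 0.16 with IL-4/13 + Inf against Inf (adjusted p = 0.0029).

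*Ankrd37*, an ankyrin repeat gene used as a hypoxia marker, had 3.83, 4.59, and 4.08 CPM in the control libraries, 3.86, 2.79, and 3.38 with IL-4/13, 6.85, 9.64, and 8.73 with Inf, and 5.70, 4.55, and 5.47 with IL-4/13 + Inf. Only the Inf libraries stood apart, since 1 library of IL-4/13 + Inf was within the range of control. The log2 fold change of *Ankrd37* was 1.02 ± 0.16 with Inf against control (adjusted p = 6.6e-06) and −0.69 ± 0.16 with IL-4/13 + Inf against Inf (adjusted p = 0.0015), and all 5 cytokines against control gave 0.33 ± 0.17 (adjusted p = 0.15).

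*Car9*, the carbonic anhydrase that acidifies the surroundings of hypoxic cells, was close to the limit of detection. It had 7, 9, and 10 counts in the control libraries (0.40, 0.56, and 0.60 CPM), 10, 2, and 5 in IL-4/13 (0.54, 0.13, and 0.37 CPM), 12, 19, and 17 in Inf (0.80, 0.93, and 1.03 CPM), and 1, 2, and 5 in IL-4/13 + Inf (0.050, 0.11, and 0.34 CPM). The Inf libraries were highest and those of IL-4/13 + Inf did not overlap them. The log2 fold change of *Car9* with IL-4/13 + Inf against Inf was −2.53 ± 0.58 (adjusted p = 0.0015), the largest in size of all members, and it rested on at most 19 counts per library. Against control, *Car9* gave 0.82 ± 0.46 for Inf (adjusted p = 0.16) and −1.71 ± 0.64 for all 5 cytokines (adjusted p = 0.039). The last call was lost without control replicate 2 (−1.65) or 3 (−1.59), and without IL-4/13 + Inf replicate 1 (−1.23) or 2 (−1.53).

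**Figure D2:**
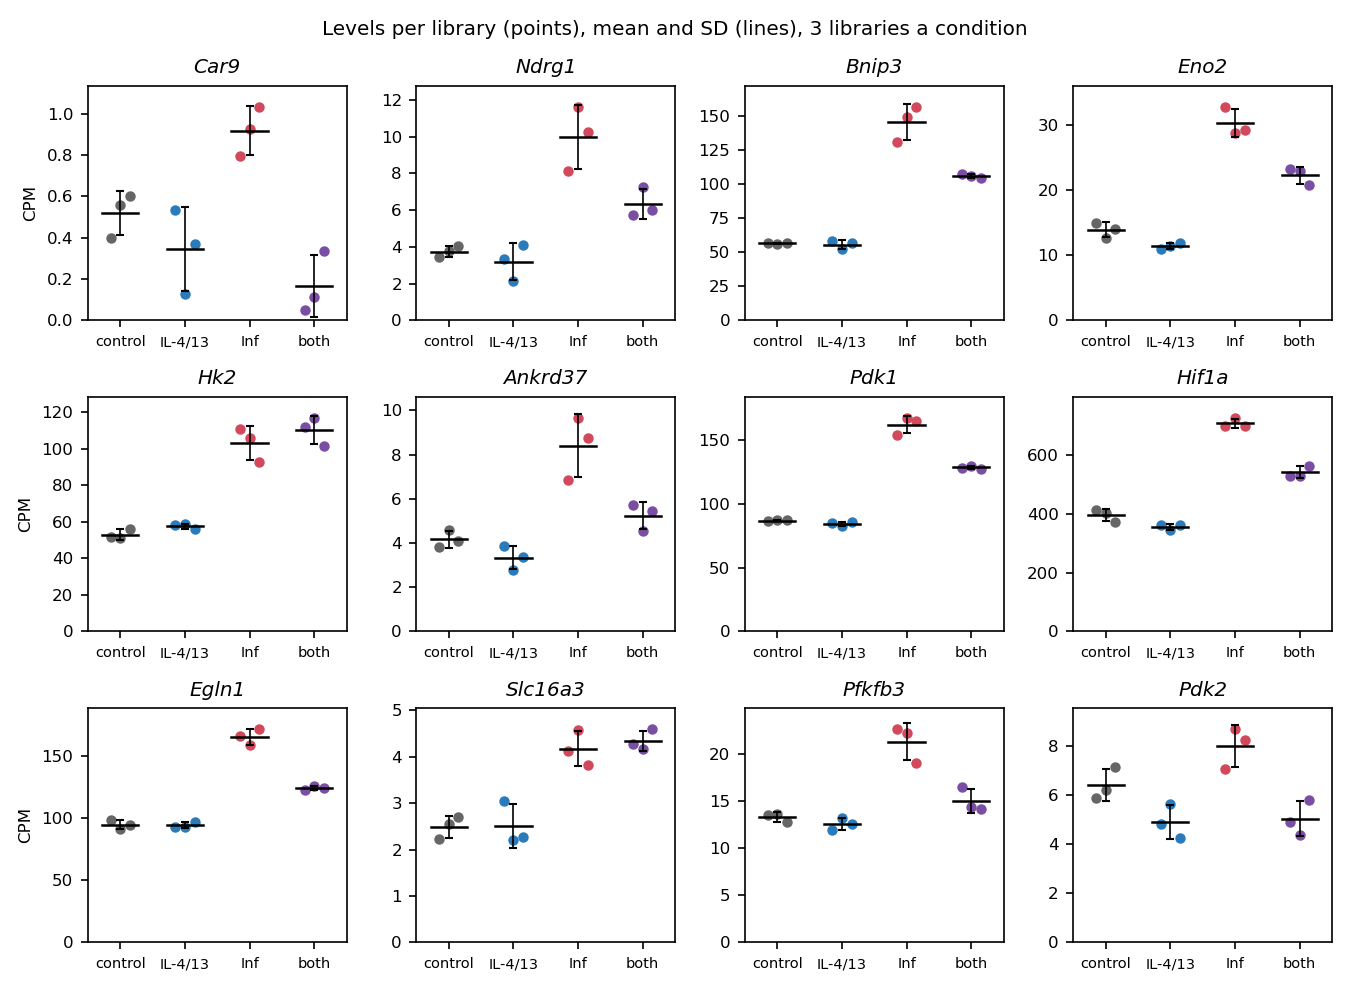
CPM (y axis, linear and starting at 0) of the 12 members with the largest called change in each of the 4 conditions (x axis, with "both" for IL-4/13 + Inf); points are libraries and lines are the mean and SD of 3. For *Ndrg1*, *Bnip3*, *Eno2*, *Ankrd37*, *Pdk1*, *Hif1a*, *Egln1*, and *Pfkfb3* the libraries of both lie below those of Inf, while for *Hk2* and *Slc16a3* the ranges of Inf and both overlap.

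Whether IL-4/13 acted differently with and without Inf was tested as an interaction, which is the log2 fold change of IL-4/13 with Inf present minus the one without. It was called lower for 3 members and higher for 0, with 1.59% and 1.52% of all tested genes called in these directions. DESeq2 also called 3 lower and 0 higher. At an unadjusted edgeR p under 0.05 there were 22 members below 0 and 0 above. The share of all genes at that unadjusted p is not given here, so the 22 cannot be set against the shares above. *Bnip3* had −0.44 ± 0.08 (adjusted p = 0.0012), *Egln1* −0.40 ± 0.07 (adjusted p = 0.00031), and *Pdk1* −0.29 ± 0.07 (adjusted p = 0.0080). For these 3, IL-4/13 alone gave log2 fold changes of −0.02 ± 0.06, −0.01 ± 0.05, and −0.04 ± 0.05. *Hif1a* (−0.23 ± 0.06, adjusted p = 0.024) and *Tpi1* (−0.21 ± 0.05, adjusted p = 0.021) had an adjusted p below 0.05 and lay inside the fold threshold. *Hif1a* was called without control replicate 1 (−0.27), IL-4/13 replicate 2 (−0.26), or IL-4/13 + Inf replicate 3 (−0.26). *Pfkfb3* was called without Inf replicate 3 (−0.49) and *Pgam1* without Inf replicate 1 (−0.25). For *Hk2* the interaction was −0.03 ± 0.09 and for *Slc2a1* −0.06 ± 0.06.

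The same difference can be read as the response to Inf without and with IL-4/13, which are measured in separate libraries. In the presence of IL-4/13, Inf was called higher for 23 members and lower for 1 (*Pfkfb4*), where 13.3% of all genes were called higher and 11.0% lower. A total of 22 members were called higher by Inf both without and with IL-4/13, which was 88.0% of the former list and 95.7% of the latter. The overlap over all tested genes is not given here. *Eno1*, *Pkm*, and *Pdk4* were called without IL-4/13 and not with it, *Eno1b* the other way round, and none of these 4 was called in the interaction. *Pkm* was also called with IL-4/13 present when IL-4/13 replicate 3 was left out (0.26), and *Eno1b* and *Pgam1* were not when IL-4/13 + Inf replicate 1 was left out (0.245 and 0.242). The median log2 fold change of the members was 0.54 without IL-4/13 and 0.32 with it, and 32 of 36 members had the smaller value with it. The median interaction was −0.16 over the members and 0.00 over all tested genes. The response to Inf with IL-4/13 was the comparison added after the data had been seen, and *Pfkfb3* (0.26 ± 0.10, adjusted p = 0.048) was called there only at the margin, since the call was lost without any 1 of the control or IL-4/13 libraries and without IL-4/13 + Inf replicate 1 or 2, at 0.19 to 0.30.

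**Figure D3:**
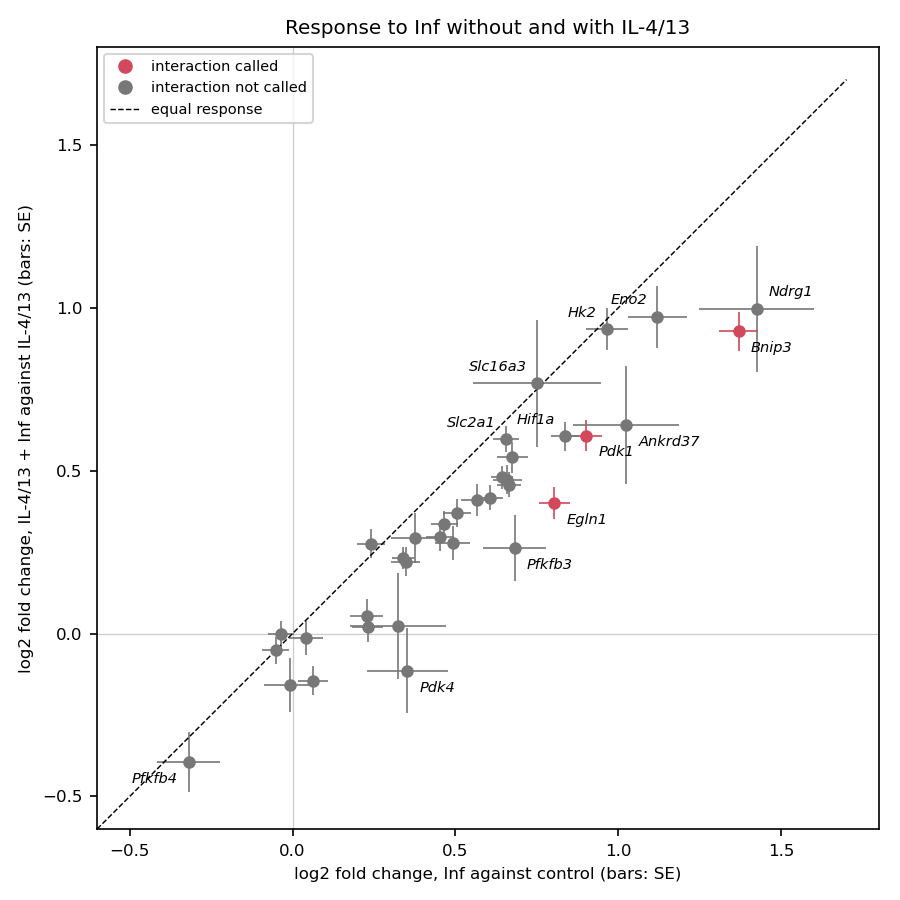
Log2 fold change of the tested members for Inf without IL-4/13 (x axis, against control) and with it (y axis, against IL-4/13), with standard errors; the dashed line marks an equal response, red points were called in the interaction, and *Car9*, with few counts, is left out. *Bnip3*, *Egln1*, and *Pdk1* lie below the line, and *Hk2*, *Slc2a1*, and *Slc16a3* lie on or near it.

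Within families of related enzymes, levels were compared per kilobase of the longest transcript in GENCODE M21. *Hk2* made up 16.8% ± 0.44 of the summed hexokinase level (CPM per kb of *Hk1* and *Hk2*) in control, 18.1% ± 0.67 with IL-4/13, 21.7% ± 0.94 with Inf, and 24.7% ± 1.28 with IL-4/13 + Inf (SD, n = 3). The share of *Hk2* in each condition did not overlap that in any other. *Pfkfb3* made up 35.4% ± 1.96 of the sum of *Pfkfb3* and *Pfkfb4* in control, 29.7% ± 1.08 with IL-4/13, 52.2% ± 3.81 with Inf, and 39.8% ± 4.29 in IL-4/13 + Inf. *Pfkl* was the largest share of the 3 phosphofructokinases in each condition, at 58.6% ± 1.37 in control and 65.9% ± 0.24 in Inf. *Pdk1* was the largest share of the 3 pyruvate dehydrogenase kinases among the members, without *Pdk3*, at 72.5% ± 2.20 and 79.5% ± 0.75. *Eno2* was 1.05% ± 0.055 of the sum of *Eno1*, *Eno1b*, and *Eno2* in control and 1.87% ± 0.19 in Inf, and *Slc16a3* was 1.39% ± 0.14 of the sum of *Slc16a1* and *Slc16a3* in control and 2.22% ± 0.13 in Inf. *Ldha* was 97.8% ± 0.019 of the sum of *Ldha* and *Ldhb* in control. These shares are descriptions without a test, and they leave out family members outside the list.

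**Figure D4:**
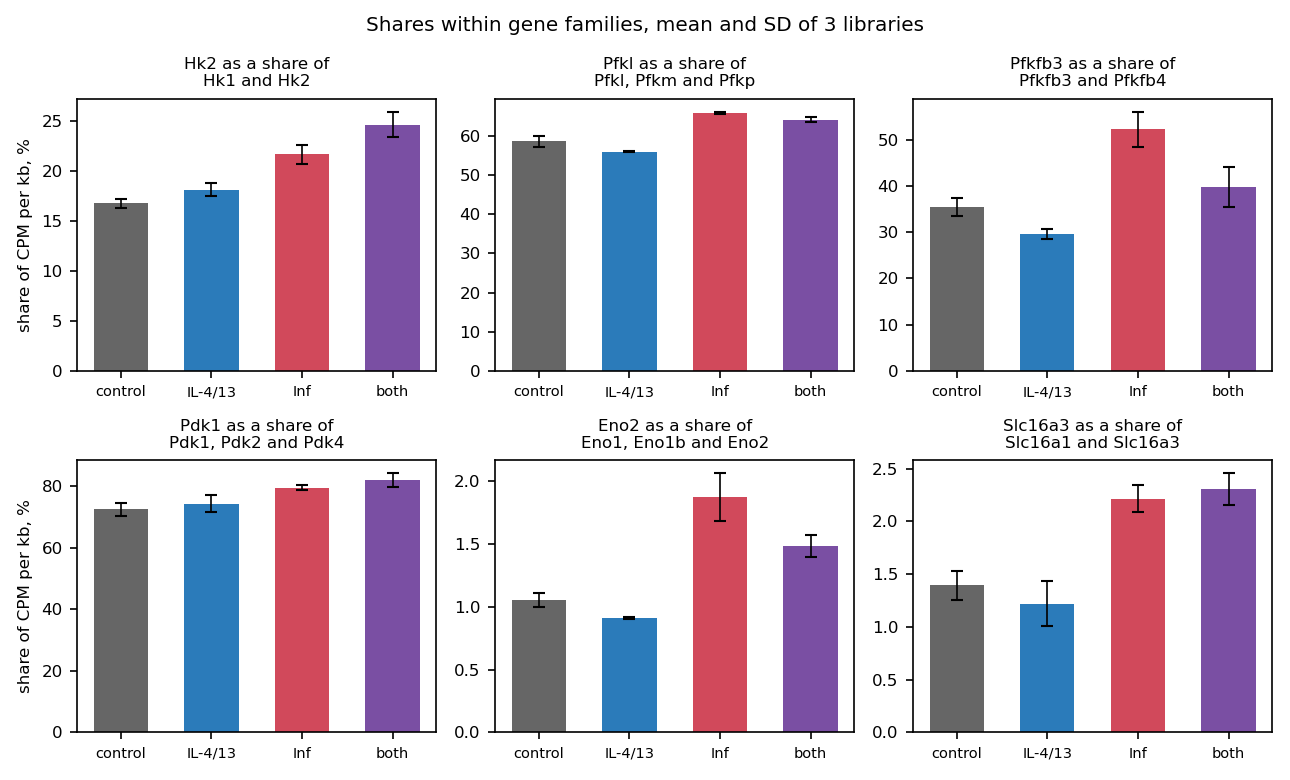
Share of a member in the summed level of its family (y axis, percent of CPM per kb, starting at 0, with a separate scale in each panel) in the 4 conditions (x axis, with "both" for IL-4/13 + Inf); bars are means and lines SD of 3 libraries. *Hk2* is highest in both at 24.7%, and *Pfkfb3* is highest in Inf at 52.2% and at 39.8% in both.

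Several members share sequence with processed pseudogenes, and reads of such a gene can be counted elsewhere. The share of 50-mers of the longest transcript that also occur in pseudogenes was above 5% for 12 of 37 rows and 0 for 23. The 50-mers of *Pgk1* (68%), *Eno1* (52.8%), *Pgam1* (41.5%), *Pkm* (30.5%), *Ldhb* (27.0%), and *Bnip3* (21.9%) were the most affected, besides *Eno1b* (67.3%). With genes other than pseudogenes included, the shares were 72.2% for *Eno1* and 84.5% for *Eno1b*. The counts on these pseudogenes were 139% of the counts on *Pgam1*, 90.0% of those on *Eno1*, 54.9% on *Ldhb*, 31.0% on *Gpi1*, 26.5% on *Bnip3*, and 12.8% on *Pkm*. For *Gapdh*, which is no member, 5628 counts were on the gene and 170641 on its pseudogenes. The pseudogene rows moved with Inf too, from 14.7 to 38.9 CPM for *Bnip3* and from 690 to 1034 CPM for *Gapdh*. When these counts were added to the members, 26 members were called higher and 1 lower with Inf, *Eno1b* being the added one, and the numbers called in the other comparisons were the same. The levels of these members per gene are therefore uncertain, and how shared reads were counted is not given in the sources used here.

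**Figure D5:**
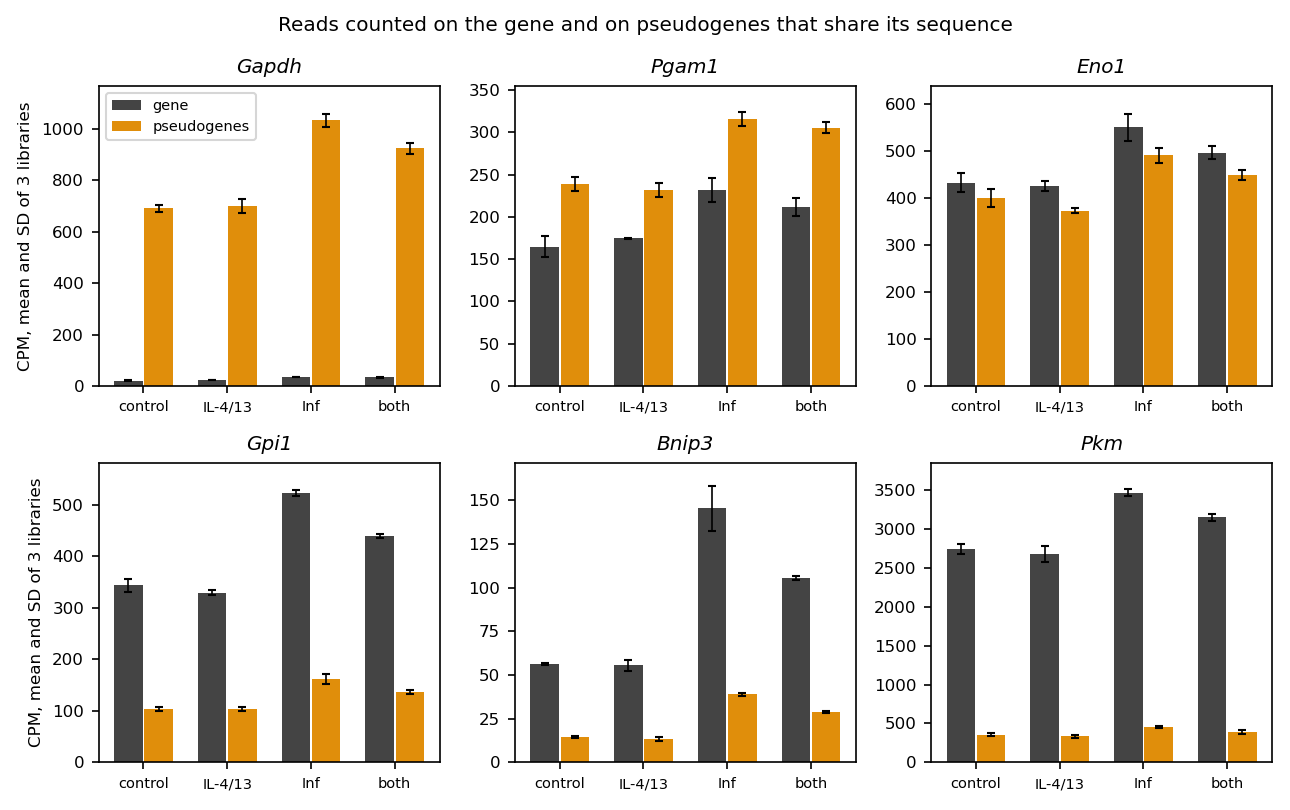
Mean CPM with SD of 3 libraries (y axis, starting at 0, with a separate scale in each panel) counted on 5 members and on *Gapdh* (dark bars) and on pseudogenes that share 50-mers with them (orange bars), in the 4 conditions (x axis, with "both" for IL-4/13 + Inf). Pseudogenes took more reads than the gene for *Gapdh* and *Pgam1*, and for *Bnip3* and *Gpi1* they moved with the gene from control to Inf.

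Other genes of the same pathways gave a mixed picture outside the hypoxia group. The lists below hold no members and were counted only. Of 12 tested genes of glycolysis outside the members, Inf raised 5 and lowered 4, with a median log2 fold change of 0.09. *Slc2a6*, a sugar transporter of the lysosome, rose from 0.91 ± 0.26 to 4.43 ± 1.05 CPM (2.25 ± 0.29), *Pgm1*, the phosphoglucomutase that links glycogen to glycolysis, from 80.0 ± 1.00 to 170 ± 7.89 (1.09 ± 0.05), and *Gapdh* from 19.98 ± 2.41 to 34.5 ± 0.090 (0.78 ± 0.08). With IL-4/13 added to Inf, 1 was called higher (*Adpgk*, 0.29 ± 0.07) and 2 lower (*Slc2a8*, −0.47 ± 0.12, and *Pgm1*, −0.35 ± 0.05).

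Of 10 tested genes around pyruvate entry, Inf raised *Pcx*, pyruvate carboxylase, from 51.0 ± 6.27 to 118 ± 21.2 CPM (1.21 ± 0.17) and lowered *Pdp1*, a pyruvate dehydrogenase phosphatase (−0.33 ± 0.08). With IL-4/13 added to Inf, *Pcx* (0.59 ± 0.16) and *Dlat*, a core subunit of pyruvate dehydrogenase (0.54 ± 0.05), rose and *Pdp1* (−0.28 ± 0.08) fell. These 3 were also the ones called in IL-4/13 against control, at 0.76 ± 0.17 for *Pcx*, 0.52 ± 0.05 for *Dlat*, and −0.31 ± 0.08 for *Pdp1*. Of 8 other pentose phosphate genes, Inf raised *H6pd* (0.41 ± 0.05) and lowered *Prps1* (−0.67 ± 0.06) and *Prps2* (−0.30 ± 0.06), which make the ribose donor of nucleotide synthesis. *Prps1* was the only one of the 8 called when IL-4/13 was added to Inf, at 0.54 ± 0.06.

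The hypoxia and HIF genes outside the members moved mostly up with Inf, 15 of 22 tested being called higher and 1 lower (*Ddit4*), with a median log2 fold change of 0.66. *Epas1*, which encodes HIF-2α, rose from 5.24 ± 0.38 to 19.99 ± 3.51 CPM (1.92 ± 0.14), *Arnt2*, a HIF partner, from 2.58 ± 0.29 to 9.10 ± 1.42 (1.81 ± 0.18), and *P4ha2*, a collagen prolyl hydroxylase, from 116 ± 5.94 to 290 ± 5.97 (1.32 ± 0.05). *Vegfa*, the best-known angiogenic HIF target and named here after its values were seen, was at 166 ± 3.56 CPM in control and 169 ± 7.18 in Inf and was not called. When IL-4/13 was added to Inf, 6 were called lower, led by *Arnt2* (−0.83 ± 0.16) and *Epas1* (−0.45 ± 0.12), and 2 higher, *Stc2* (0.68 ± 0.16) and *Lox* (0.41 ± 0.04). The other 14 were not called, and the median log2 fold change of the 22 in that comparison was −0.14. *Lox*, a collagen cross-linking enzyme, also rose with IL-4/13 alone, by 0.98 ± 0.04.

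Among 9 tested regulators of glucose use, Inf raised 3 and lowered 3. *Ppargc1a*, a coactivator of mitochondrial genes, fell (−1.63 ± 0.43), and *Txnip* (0.64 ± 0.05) and *Arrdc4* (0.50 ± 0.13), arrestins that restrain glucose uptake, rose. With IL-4/13 added to Inf, *Myc* (0.31 ± 0.05) and *Mlx* (0.26 ± 0.07) were called higher and 0 lower.

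Markers of other states changed too, some of them in the direction opposite to most members, and are given as measured. Of 6 proliferation genes, Inf against control was called lower for 5, led by *Mcm2* (−0.58 ± 0.04), and IL-4/13 + Inf against Inf was called higher for 3. IL-4/13 against control was called higher for 1 of the 6 and lower for 0. The sum of the 6 was 1073 to 1140 CPM in control, 1241 to 1266 in IL-4/13, 829 to 907 in Inf, and 1004 to 1038 in IL-4/13 + Inf. The sum of the 7 fibroblast markers was 14524 to 16587 CPM in control, 12542 to 13206 in IL-4/13, 10779 to 11926 in Inf, and 9161 to 9399 in IL-4/13 + Inf. The fibroblast markers differed in direction, since with Inf against control 4 were called lower (*Vim*, *Col1a1*, *Col1a2*, and *Thy1*, at −0.72 to −0.54) and 2 higher, *Pdgfra* (0.97 ± 0.07) and *Pdgfrb* (0.84 ± 0.08). With IL-4/13 against control, 4 of the 7 were called lower and 0 higher. *Fabp4*, the only tested adipocyte marker of 7, was at 11.3 ± 0.79 CPM in control, 30.1 ± 1.85 with Inf, and 19.4 ± 1.92 with IL-4/13 + Inf, while *Adipoq*, *Lep*, and 4 more had 3 or fewer counts in each library. *Fabp4* was also called higher with IL-4/13 against control, at a log2 fold change of 0.50. The summed macrophage markers were at 7.26 to 8.16 CPM in control, 5.83 to 7.35 in IL-4/13, 8.67 to 9.84 in Inf, and 6.69 to 9.22 in IL-4/13 + Inf. Of these 7, 4 were tested. *Mrc1* was called higher with Inf and with all 5 cytokines against control, from 1, 3, and 5 counts in the control libraries to 31, 43, and 36 with Inf and 64, 50, and 46 with IL-4/13 + Inf. *Csf1r* was called lower with all 5 cytokines against control (−0.81 ± 0.27) and *Lyz2* with IL-4/13 + Inf against Inf (−0.74 ± 0.25), while *Adgre1* and *Itgam* had at most 1 count per library. *Cdh5*, the only tested endothelial marker of 4, was called higher with Inf and with all 5 cytokines against control. It had 2 counts in each control library, 11, 10, and 22 with Inf, and 9, 13, and 8 with IL-4/13 + Inf. With IL-4/13 + Inf against IL-4/13, 1 macrophage marker was called higher and *Cdh5* was not called. The 4 endothelial markers summed to at most 1.58 CPM and the 4 epithelial markers to at most 0.66 CPM. The part of these genes in the members' changes was not tested. In bulk RNA, a change in the number of cells in a state and a change in RNA per cell cannot be told apart.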

How the data were processed

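PolyA RNA was extracted by the authors and made into stranded libraries, and the submitters' processing notes name STAR, featureCounts, and GRCm39 without versions. The deposited values are raw counts per gene, without normalization, and all value columns matched a sample. The analysis started from these counts with edgeR 4.0.16, DESeq2 1.42.0, and limma 3.58.1 in R 4.3.3, and with Python 3.11.15. Genes were kept by filterByExpr (minimum count 10, minimum total count 15), TMM factors ranged from 0.986 to 1.02, and 1 robust quasi-likelihood fit of all 12 libraries gave every contrast, with p-values adjusted over 14810 genes. The study used DESeq2 on these libraries, which was run as an alternative. Both thresholds are the ones stated for its pseudobulk data. The models were tested on simulated data.

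The members and lists were chosen with earlier results of these data known. Values per library are given for the 12 members with the largest called log2 fold change in 5 contrasts and for members called in the interaction, and for each other list the 3 largest called genes in Inf against control and in IL-4/13 + Inf against Inf. The contrast of IL-4/13 + Inf against IL-4/13 was added after the data had been seen. Gene names, promoters, and transcripts came from RefSeq tables on GRCm38.p6 and from GENCODE M21 (GRCm38), a build other than that of the counts, so no coordinates were moved between them. Counting error alone limits genes with 3 or fewer counts, up to 0.221 CPM. The alternatives are given below.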

Additional observations from a re-analysis of the deposited data

Results flagged for a closer look

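The response to IL-4/13 with Inf present differed from the response without it for 3 members. The interaction was −0.44 for *Bnip3*, −0.40 for *Egln1*, and −0.29 for *Pdk1* on the log2 scale. With each single library left out in turn, all 3 were still called, with *Bnip3* between −0.50 and −0.38, *Egln1* between −0.43 and −0.37, and *Pdk1* between −0.32 and −0.27 over all alternatives. At a fold threshold of 0.5 none of the 3 was called. *Bnip3* shares 21.9% of its 50-mers with pseudogenes, while *Egln1* and *Pdk1* share none.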

How the results depend on the processing

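No member's call changed direction under any alternative. The numbers of members called, in the order higher and lower, were 25 and 1 with Inf against control and 18 and 2 with IL-4/13 + Inf against control. They were 0 and 15 with IL-4/13 + Inf against Inf, 0 and 3 in the interaction, 1 and 0 with IL-4/13 against control, and 23 and 1 with IL-4/13 + Inf against IL-4/13. At a fold threshold of 0.5, Inf against control had 18 and 0, and IL-4/13 + Inf against control had 8 and 1. At that threshold IL-4/13 + Inf against Inf had 5 lower, and IL-4/13 + Inf against IL-4/13 had 10 and 0. The interaction then had 0 lower and IL-4/13 against control had 0 higher. At a threshold of 0, IL-4/13 + Inf against Inf had 24 lower, the interaction had 5 lower, IL-4/13 against control had 2 and 2, and IL-4/13 + Inf against IL-4/13 had 2 lower. The 1 member called higher with IL-4/13 against control became 0 at an adjusted p of 0.01, with no filter, and with DESeq2. The 2 called lower with IL-4/13 + Inf against control became 0 at an adjusted p of 0.01 and 1 with no filter, with a mean of at least 50 counts, with only the libraries compared, and with DESeq2. The filter at 50 counts removed *Car9*. With IL-4/13 + Inf against control, *Car9* had an adjusted p of 0.065 in edgeR with no filter and 0.060 with DESeq2. With IL-4/13 against control, *Pfkfb4* had 0.054 and 0.052 in these settings. In a separate comparison, IL-4/13 + Inf against Inf, DESeq2 gave *Car9* no adjusted p. For the loss with only the libraries compared, the cause was not tested.

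When single libraries were left out in turn, the counts were 24 to 27 higher and 1 lower with Inf against control, 18 to 19 higher and 0 to 3 lower with IL-4/13 + Inf against control, and 0 to 1 higher and 13 to 16 lower with IL-4/13 + Inf against Inf. They were 0 higher and 3 to 4 lower in the interaction, 0 to 1 higher and 0 to 1 lower with IL-4/13 against control, and 20 to 23 higher and 1 lower with IL-4/13 + Inf against IL-4/13. The 1 member called higher with IL-4/13 + Inf against Inf was *Pfkfb4*, without IL-4/13 + Inf replicate 1 (0.30). A group left with 2 libraries shares the spread estimated over all groups. Inf replicate 3 differed most from the other libraries of its condition, with a chi-square per gene of 8.58 and 8.21. Every other pair within a condition had at most 4.64. Without Inf replicate 3, 331 of all genes were called higher and 322 lower in the interaction, against 225 and 236 with all libraries.

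Deviations from the condition means were correlated between libraries of different conditions. The correlations of 18 same-numbered pairs lay between −0.15 and 0.054, and 0 of them were above 0.1. Those of 36 differently numbered pairs lay between −0.11 and 0.16, with 4 above 0.1. The replicate numbers thus gave no sign of pairing, but 3 libraries per condition cannot exclude it. With a replicate block, 25 members were called higher with Inf against control and 15 lower with IL-4/13 + Inf against Inf. The single member call it changed was that of *Pfkfb3* with IL-4/13 + Inf against IL-4/13, where 22 were then called higher.

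Over all tested genes, a fold threshold of 0.5 in place of 0.25 changed the numbers most, from 2420 to 1514 higher and from 2266 to 863 lower with Inf against control, and from 1118 to 350 higher and from 1037 to 404 lower with IL-4/13 + Inf against Inf. It left 67 higher and 96 lower of 225 and 236 in the interaction, 193 and 116 of 412 and 380 with IL-4/13 against control, 1269 and 865 of 1981 and 1707 with all 5 cytokines against control, and 1201 and 733 of 1971 and 1627 with IL-4/13 + Inf against IL-4/13. A threshold of 0 gave 667 and 607 with IL-4/13 against control and 1818 and 1490 with IL-4/13 + Inf against Inf. It gave 255 and 247 in the interaction and 2471 lower with IL-4/13 + Inf against IL-4/13. At an adjusted p of 0.01, 129 higher and 148 lower were called in the interaction and 245 lower with IL-4/13 against control.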
